A study of Mus musculus with 4 samples.

Results

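Among the RNA contacts of Trim71 (R783H) in mouse embryonic stem cells, 33 of 793 peaks carried the name of a small noncoding RNA gene or of a small nucleolar RNA (snoRNA) host gene. They were chosen by the gene name in the authors' deposited table: a name beginning with Snord, Snora, Scarna, Rnu, Mir or Snhg, without Snhg1. The 33 peaks belonged to 32 of the 544 gene names in the table. By name, 17 peaks lay in 16 Snord genes, 1 in Rnu73b, 12 in 12 microRNA genes and 3 in the host genes Snhg12, Snhg3 and Snhg4. No peak was named for a Snora or a Scarna gene.

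The experiment crosslinked protein to RNA in cells, pulled the protein down and sequenced the RNA fragments attached to it (HITS-CLIP). All libraries came from FLAG-Trim71 (R783H) cells on the ES-E14TG2a background, grown with LIF and the inhibitors CHIR99021 and PD0325901. There were 2 libraries made with the FLAG-M2 antibody, called CLIP below, and 2 input libraries of total RNA from the same line. Neither wild-type Trim71 nor untagged cells are among the groups, the labels do not say whether the line is 1 clone, and the libraries are bulk, so RNA of a few cells and a low level in every cell cannot be told apart. The peak list holds no expression values, and stem cell markers were not checked here. Each peak has 1 CLIP value in RPM, its reads scaled to a fixed library total and not divided by the width of the peak, and 1 log2 fold change of CLIP over input, called log2 enrichment below, for the whole series, so no value below has a replicate error. The error given is a 95% Clopper-Pearson counting interval, computed from the CLIP and input reads recovered from the table, and it covers counting error only. The recovered totals were 11000000 CLIP and 82160000 input reads.

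Trim71, also known as LIN-41, is an RNA-binding protein with a RING domain and an NHL domain, and its messenger RNA is a classical target of the let-7 microRNAs. Box C/D snoRNAs guide the methylation of ribosomal RNA with the proteins fibrillarin, Nop56, Nop58 and Snu13, and box H/ACA snoRNAs guide pseudouridylation with dyskerin. Most are cut out of introns of host genes, which encode ribosomal proteins and translation factors or, as the Snhg genes do, no protein. MicroRNAs are cut from a hairpin, and the mature arm, held by an Argonaute protein, pairs with its targets through the seed at bases 2 to 8.

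Most microRNA peaks coincided with a mature microRNA. RefSeq sequences of assembly GRCm38.p6, which is mm10 with patches, listed a mature arm on the peak's strand under 9 of the 12 peaks. In 9 of 9 the 5′ end of the peak fell on the first base of the mature arm, 5 on the plus and 4 on the minus strand. The 4 on the minus strand do not depend on how the deposited starts were counted. The 5 on the plus strand match if deposited starts count from 0, a reading taken from this match, and every start is given here as counted from 1. At the 3′ end, 4 peaks ended on the last base of the arm, 3 ended 1 base past it and 2 ended 1 base before it. For the 4 on the minus strand the 3′ end is the deposited start, so these 3′ matches depend on the same reading. The 9 peaks were 21 to 23 bases wide, within hairpins of 67 to 100 bases. Their mature sequences are shown because the peaks outline them almost base for base. Capitals mark the seed.
miR-92a-3p: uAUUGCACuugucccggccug
miR-672-5p: uGAGGUUGguguacuguguguga
miR-200c-3p: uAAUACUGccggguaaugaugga
miR-301a-3p: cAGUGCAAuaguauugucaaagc
miR-434-5p: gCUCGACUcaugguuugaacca
miR-148a-3p: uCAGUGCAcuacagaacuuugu
miR-484: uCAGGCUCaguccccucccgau
let-7g-5p: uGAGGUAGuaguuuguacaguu
The only sequence with 2 peaks was miR-92a-3p, which has a gene copy on chromosome 14 and another on chromosome X. The 9 peaks therefore held 8 distinct mature sequences with 8 distinct seeds, and 7 of the 9 arms began with U. By name, 5 peaks lay on a 3p arm and 3 on a 5p arm, while miR-484 has no arm in its name.

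**Figure D1:**
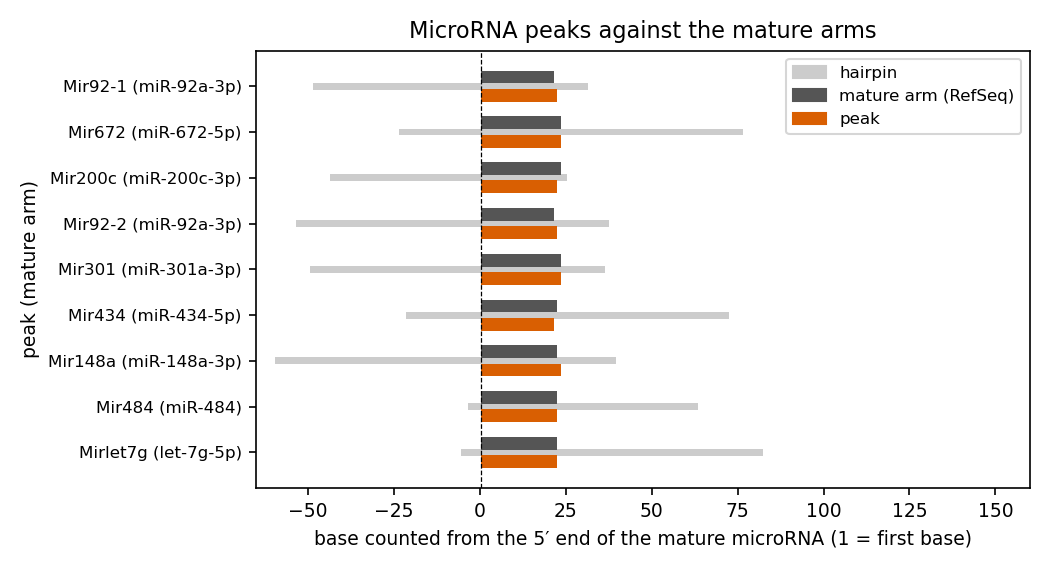
Extent of 9 microRNA peaks (orange) against the mature arm (dark grey) and the hairpin (light grey), in bases counted from the first base of the mature arm. Every peak starts on the first base of the arm and ends within 1 base of its last base.

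Mir292 had the most CLIP reads of the microRNA genes and belongs to the miR-290 cluster, which is characteristic of embryonic stem cells. Its peak (chr7:3219238-3219261, plus strand) covered bases 50 to 73 of the 82-base hairpin. In the hairpin below the bases under the peak are in capitals, since the RefSeq table lists no mature arm for this strand.
Mir292: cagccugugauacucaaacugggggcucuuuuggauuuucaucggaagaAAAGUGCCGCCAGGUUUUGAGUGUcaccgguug
The peak had 578 RPM from 6354 CLIP reads, the 7th highest RPM of the list, and 5027 recovered input reads, the highest input of any peak. Its log2 enrichment, as in the authors' deposited table, was 3.24 (interval 3.19 to 3.29), below the list median of 4.20. The RPM of Mir292 was thus among the highest in the list while its enrichment was below that of most peaks, and its rank by log2 enrichment was 667 of 793.

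Mir92-1, in the polycistronic host Mir17hg, and Mir92-2, on chromosome X, yield the same mature microRNA. Their hairpins differ outside it, and the capitals mark the bases under each peak.
Mir92-1: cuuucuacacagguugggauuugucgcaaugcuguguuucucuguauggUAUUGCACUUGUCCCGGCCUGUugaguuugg
Mir92-2: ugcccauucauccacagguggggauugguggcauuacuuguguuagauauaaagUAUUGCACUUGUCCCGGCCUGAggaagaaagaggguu
Each peak covered the 21 bases of the mature arm and the next base of its own hairpin. The Mir92-1 peak (chr14:115044476-115044497, plus strand) had 40.3 RPM from 443 CLIP and 259 input reads, with a log2 enrichment of 3.67 (interval 3.45 to 3.90). Mir92-2 (chrX:52741853-52741874, minus strand) had 16 RPM from 176 CLIP and 103 input reads, with a log2 enrichment of 3.67 (interval 3.31 to 4.04). CLIP and input reads were both fewer at the copy on chromosome X, and the enrichment of the copies was nearly equal. Reads of the shared 21 bases can align to both genes, and how the authors assigned them is not given in the sources used here.

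The other microRNA peaks on annotated arms had 5.46 to 36.7 RPM. Mir672 (chrX:104116228-104116250, minus strand) had 36.7 RPM from 404 CLIP and 393 input reads and the lowest log2 enrichment of the class, 2.94 (interval 2.74 to 3.14). Mir200c (chr6:124718325-124718346, minus strand), whose microRNA is known for holding cells in an epithelial state, had 19.2 RPM from 211 CLIP and 86 input reads, with a log2 enrichment of 4.20 (interval 3.83 to 4.57) that is also the median of the list. Mir301 (chr11:87113054-87113076, plus strand), in the span of Ska2, had 13 RPM from 143 CLIP and 104 input reads and a log2 enrichment of 3.36 (interval 2.99 to 3.74).

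Mir434 lies in the span of the imprinted gene Rtl1. Its peak (chr12:109594528-109594548, plus strand) had 12.9 RPM from 142 CLIP and 118 input reads and a log2 enrichment of 3.17 (interval 2.81 to 3.53). Mir148a (chr6:51269828-51269850, minus strand) had 11.2 RPM from 123 CLIP and 102 input reads and a log2 enrichment of 3.17 (interval 2.78 to 3.56). The values of Mir434 and Mir148a could not be told apart by their counting intervals.

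Mir484 differed from the rest of the class. Its peak (chr16:14159630-14159651, plus strand) had 10.5 RPM from 115 CLIP reads against 26 input reads, and its log2 enrichment of 5.05 (interval 4.42 to 5.72) was the highest of the class. The lower bound lay above the upper bound of 10 of the other 11 microRNA peaks, the exception being Mir200c. Mirlet7g, which encodes let-7g, lies in the span of Wdr82. It had the fewest CLIP reads of the peaks on annotated arms, 60 against 41 input reads (5.46 RPM, chr9:106178846-106178867, plus strand), and a log2 enrichment of 3.45 (interval 2.85 to 4.06).

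A pair of peaks named for microRNA genes did not lie on the hairpin of that name. The Mir1198 peak (chr12:55418415-55418443, plus strand) had 5.36 RPM from 59 CLIP and 36 input reads and a log2 enrichment of 3.61 (interval 2.99 to 4.25). It was the only one of the 33 peaks placed in a 3′ UTR, and its position lies in the protein-coding gene Psma6, while RefSeq places Mir1198 on another chromosome. The Mir3096b peak (chr5:23852211-23852280, plus strand) was 70 bases wide, covered all 45 bases of the box C/D gene Snord93 and had 46.8 RPM from 515 CLIP and 301 input reads, with a log2 enrichment of 3.68 (interval 3.47 to 3.89). The name Mir3096b was not matched in the gene table. Without these, the 10 peaks over the hairpin they are named for had a median log2 enrichment of 3.41, against 3.53 for all 12.

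The box C/D snoRNA peaks included the strongest of the set. Snord43, encoded in the gene of the ribosomal protein Rpl3, had 777 RPM from 8543 CLIP and 1803 input reads, the 2nd highest RPM of the list (chr15:80082859-80082920, minus strand). Its log2 enrichment was 5.14 (interval 5.07 to 5.22). Snord2, in Eif4a2, which encodes an RNA helicase of translation initiation, followed with 696 RPM from 7655 CLIP and 1765 input reads (chr16:23108969-23109020, plus strand) and a log2 enrichment of 5.02 (interval 4.94 to 5.09). Snord52 (chr17:34950950-34951018, minus strand), in the noncoding gene 1110038B12Rik, had 253 RPM and a log2 enrichment of 4.75 (interval 4.64 to 4.87). Snord49a (chr11:62603473-62603521, plus strand), in the noncoding gene 2410006H16Rik, had 205 RPM and a log2 enrichment of 4.46 (interval 4.34 to 4.58). Per base of the peak, Snord2 had 13.4 RPM and Snord43 12.5 RPM, the reverse of their order by peak, and Snord49a and Snord52 followed with 4.18 and 3.66 RPM per base.

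Snord58b, in the gene of the ribosomal protein Rpl17, had the highest log2 enrichment of the set, 6.85 (interval 6.56 to 7.16), from 1531 CLIP and 99 input reads (139 RPM). Its interval was 5 bases long (chr18:75001119-75001123, plus strand) at the 3′ end of the gene, and its 27.8 RPM per base rests on that short interval. The Snord95 gene, in Rack1, which encodes a ribosome-associated scaffold, was the only member with 2 listed peaks. Its 3′ peak (chr11:48803169-48803205, plus strand) had 16.3 RPM from 179 CLIP and 19 input reads and a log2 enrichment of 6.14 (interval 5.45 to 6.90). The 5′ peak (chr11:48803140-48803154, plus strand) had 14.7 RPM from 162 CLIP and 26 input reads and a log2 enrichment of 5.54 (interval 4.94 to 6.20). The difference of 0.60 between them did not exceed counting error (Fisher's exact test, two-sided, p = 0.208, for the 1 pair of peaks that share a gene name). The test takes the reads of the peaks as separate. The peaks lie 14 bases apart, and whether a read was counted in both is not known.

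The weakest enrichment belonged to Snord70, in the gene of the snoRNA-binding protein Nop58. Its peak (chr1:59691942-59692013, plus strand) had 93 CLIP and 117 input reads (8.46 RPM, or 0.117 RPM per base) and a log2 enrichment of 2.57 (interval 2.16 to 2.97). The lowest RPM of the class was that of Snord85, with 8.27 RPM from 91 CLIP and 37 input reads and a log2 enrichment of 4.20 (interval 3.63 to 4.79). Between these extremes lay Snord42b (103 RPM, chr11:78183056-78183110), Snord42a (79.7 RPM, chr11:78181299-78181345) and Snord4a (53.7 RPM, chr11:78181690-78181732), all from the minus strand of the ribosomal protein gene Rpl23a. Their log2 enrichments were 4.46 (interval 4.29 to 4.63), 4.98 (interval 4.76 to 5.21) and 4.37 (interval 4.14 to 4.61). The interval of Snord42a lay above those of the other two, each taken at the peak that carries its name. Snord4a also has a host-named peak, given with the second peaks, whose log2 enrichment of 5.24 (interval 4.93 to 5.56) overlapped that of Snord42a and lay above the peak named Snord4a.

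Snord68 (chr8:123103059-123103105, plus strand), in Rpl13, had 98.5 RPM from 1083 CLIP and 714 input reads. Snord64 (chr7:59978811-59978843, minus strand), in the imprinted noncoding gene Snhg14, had 85.5 RPM from 941 CLIP and 518 input reads. Both had low enrichment for the class, with log2 enrichments of 3.50 (interval 3.36 to 3.64) and 3.76 (interval 3.61 to 3.92). Snord1b (chr11:116674151-116674220, plus strand), in Snhg16, had 41.8 RPM from 460 CLIP and 74 input reads, and Snord15a, in Rps3, had 41.5 RPM from 457 CLIP and 216 input reads. At nearly the same RPM per peak, the log2 enrichment was 5.54 (interval 5.18 to 5.91) for Snord1b and 3.98 (interval 3.75 to 4.22) for Snord15a. Snord69 (chr14:31014292-31014342, minus strand), in Gnl3, which encodes the nucleolar protein nucleostemin, had 32.5 RPM and a log2 enrichment of 4.65 (interval 4.34 to 4.98). Rnu73b, the only Rnu name, was not matched in the gene table, and its peak (chr3:86140619-86140670, minus strand) lay on the RefSeq gene Snord73b in the span of Rps3a1. It had 19.7 RPM from 217 CLIP and 36 input reads and a log2 enrichment of 5.49 (interval 4.98 to 6.04).

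**Figure D2:**
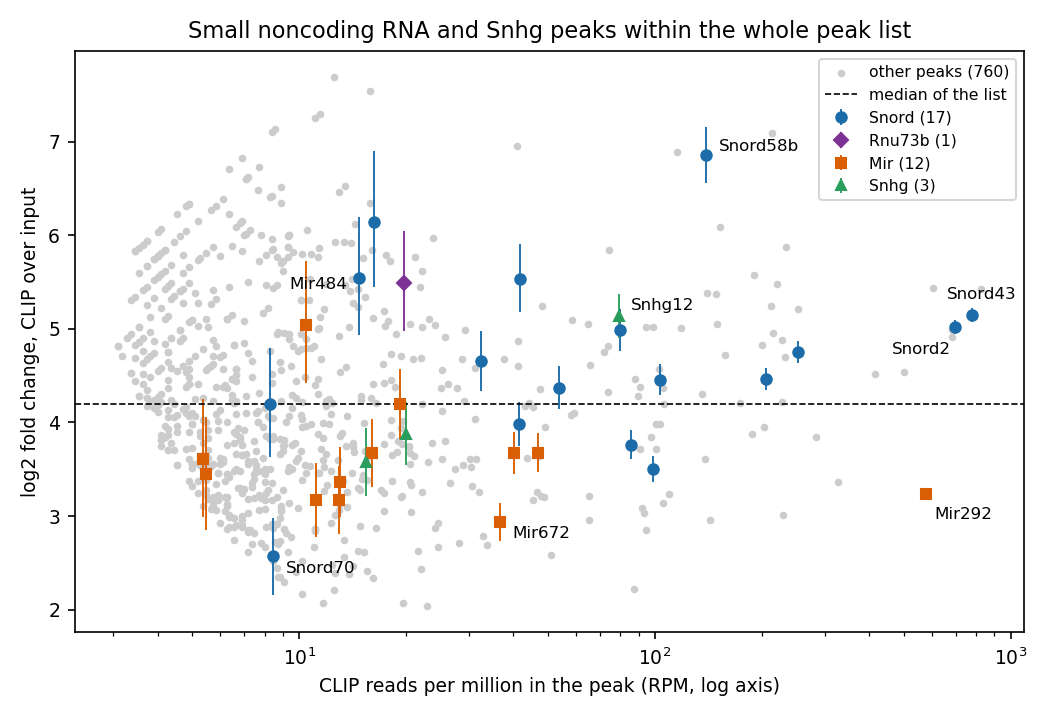
CLIP level in RPM (log axis) against log2 fold change, CLIP over input, for the Snord, Rnu73b, Mir and Snhg peaks and, in grey, the 760 other peaks. Vertical bars are 95% counting intervals and the dashed line is the list median of 4.20. Snord43 and Snord2 lie at the right above the line, Mir292 at the right below it.

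The snoRNA peaks ended at the 3′ end of the snoRNA more often than they began at its 5′ end. Of the 18 Snord and Rnu73b peaks, 15 ended within 5 bases of the annotated 3′ end and 6 of them on its last base, whereas 6 started within 5 bases of the annotated 5′ end. The gene table gives no strand, so the strand of the peak was used. On the minus strand the 3′ end is the deposited start. The matches of Snord43, Snord52 and Snord64 to the last base therefore rest on deposited starts counting from 0. A further 79 peaks of the list, with host or other names, lay over a snoRNA gene, and there 48.1% ended and 45.6% started within 5 bases of those ends, against 83.3% and 33.3% here. No test was made of this difference, since the peaks are not replicates and several share a gene.

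Of the 18 peaks, 8 covered at least 80% of the snoRNA gene, 6 covered 50 to 80% and 4 covered less. Snord43, Snord52 and Snord70 covered the whole gene and began 14, 10 and 16 bases before it. In Snord2, Snord49a and Snord64 the peaks ran from base 17, 14 and 14 to the last base. Only 3 peaks did not end within 5 bases of the 3′ end. The Snord15a peak (chr7:99482891-99482932, minus strand) covered the first 42 of 148 bases, the 5′ peak of Snord95 covered bases 2 to 16 of 68, and the Snord85 peak ended 6 bases past the gene.

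In Snord58b and Snord4a a second peak lay on the same gene under the name of its host. Snord58b was also covered by an intronic Rpl17 peak that reached from 10 bases before the gene to base 26, with 157 RPM and a log2 enrichment of 4.72 (interval 4.57 to 4.87), below that of the 5-base peak at the 3′ end. In Snord4a a Rpl23a peak over bases 3 to 12 had 48.3 RPM and a log2 enrichment of 5.24 (interval 4.93 to 5.56), above the 4.37 of the peak over bases 25 to 67. The more enriched end was therefore the 3′ end in Snord58b and the 5′ end in Snord4a.

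**Figure D3:**
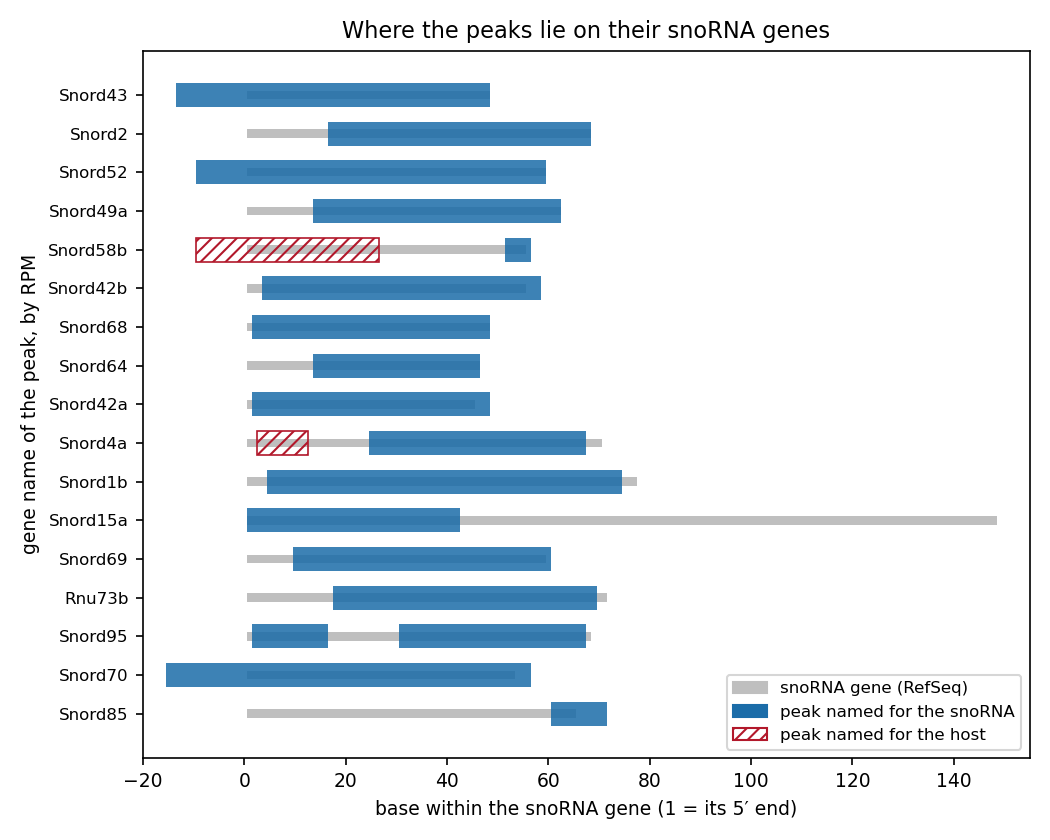
Position of the Snord and Rnu73b peaks (blue) along their snoRNA genes (grey), in bases from the 5′ end of the gene, ordered by RPM. Hatched boxes are the Rpl17 and Rpl23a peaks on Snord58b and Snord4a. Most blue boxes end at the 3′ end of the gene, and Snord15a is covered only in its first 42 bases.

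The 15 host genes of the Snord and Rnu73b peaks comprised 6 ribosomal protein genes, 5 other protein-coding genes and 4 long noncoding RNA genes. Counted by gene name, the hosts had 29 further listed peaks, of which 15 lay on small RNA genes and 14 did not. Those with the most RPM among the 14 lay just before the 5′ end of a snoRNA of the set. The 2410006H16Rik peak (chr11:62603450-62603451, 187 RPM) lay before Snord49a, whose gene starts at 62603460. The Rpl13 peak (chr8:123103033-123103034, 87.8 RPM) lay before Snord68, from 123103058. On the minus strand, the Rpl23a peak (chr11:78181360-78181362, 73.9 RPM) lay before Snord42a, from 78181346. Whether they are binding apart from the snoRNAs was not tested. No other listed peak carried the name Rpl3, Snhg14 or Snhg16. In Eif4a2 the only other peak lay in the 3′ UTR, with 15.2 RPM against 696 RPM for Snord2. Nop58, by contrast, had a 3′ UTR peak of 16.5 RPM with a log2 enrichment of 4.21 (interval 3.81 to 4.62), above the RPM and the enrichment of Snord70 in its intron.

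The peaks named for host genes differed in what they covered. The Snhg12 peak (chr4:132310694-132310761, plus strand) covered all of the box C/D gene Snord99, 1 of 4 snoRNA genes in Snhg12, with 9 further bases before and 3 past it. It had 79 RPM from 869 CLIP and 185 input reads and a log2 enrichment of 5.13 (interval 4.90 to 5.37). The Snhg4 peak (chr18:35557174-35557228, plus strand) covered the last 54 bases of the 198-base box H/ACA gene Snora74a. It had 15.4 RPM from 169 CLIP and 106 input reads and a log2 enrichment of 3.57 (interval 3.22 to 3.94). The Snhg3 peak (chr4:132351952-132352012, minus strand) lay on no snoRNA gene, 19 bases from the 3′ end of the host and 309 bases from its nearest snoRNA gene. It had 19.9 RPM from 219 CLIP and 111 input reads and a log2 enrichment of 3.88 (interval 3.55 to 4.22).

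Box classes were very unequally represented. No peak had a Snora name, and by position 3 peaks of the list lay on a Snora gene, the Snhg4 peak and peaks in Rpsa and Rpl39. By position 44 peaks lay on a Snord gene, 20 of them among the 33. Of the RefSeq genes with a Snord symbol, 38 of 94 (40.4%) had a listed peak, against 3 of 39 (7.69%) with a Snora symbol and 0 of 9 with a Scarna symbol. A further 53 peaks lay on snoRNA genes whose symbol gives no box class. The abundance of unlisted snoRNAs in the input is not known from the list.

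The classes, as chosen by name, also differed in enrichment. The median log2 enrichment was 4.65 in the 17 Snord peaks (range 2.57 to 6.85), 3.53 in the 12 microRNA peaks (2.94 to 5.05) and 3.88 in the 3 Snhg peaks, beside 4.20 in the whole list. The microRNA value holds for peaks chosen by name, and by position 7 other peaks lay on a Mir gene. Those on Mir5099 (5.01), Mir423 (4.74), Mir16-2 (4.545) and Mir677 (4.36) lay above the list median. Those on Mir151 (3.495), Mir378a (3.30) and Mir101a (3.01) lay below it. The Snord value holds for peaks chosen by name as well, and by position 24 other peaks lay on a Snord gene. Those 24 lay on both sides of the list median, from 2.625 (Sf3b3 peak on Snord111) to 5.37 (Nop56 peak on Snord110). CLIP exceeded input in each of the 33 (two-sided exact binomial test with adjustment by Benjamini and Hochberg over 793 peaks, largest adjusted p = 5.29e-30), as in 100% of the list, and the interval lay above 4-fold enrichment in 33 of 33, beside 99% of the list. These counts say nothing particular about the set, since the authors had selected the peaks. The interval lay wholly above the list median in 11 of the 17 Snord peaks and in 1 of the 12 microRNA peaks, beside 30% of the list. It lay wholly below the median in 3 Snord peaks (Snord64, Snord68 and Snord70) and in 9 microRNA peaks, beside 33.5% of the list. Intervals were narrower here than in the list, with median half-widths of 0.23 for Snord, 0.37 for microRNA and 0.56 for all peaks, which by construction raises both counts. By the value alone, 13 of 17 Snord peaks lay above the list median and 10 of 12 microRNA peaks below it.

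**Figure D4:**
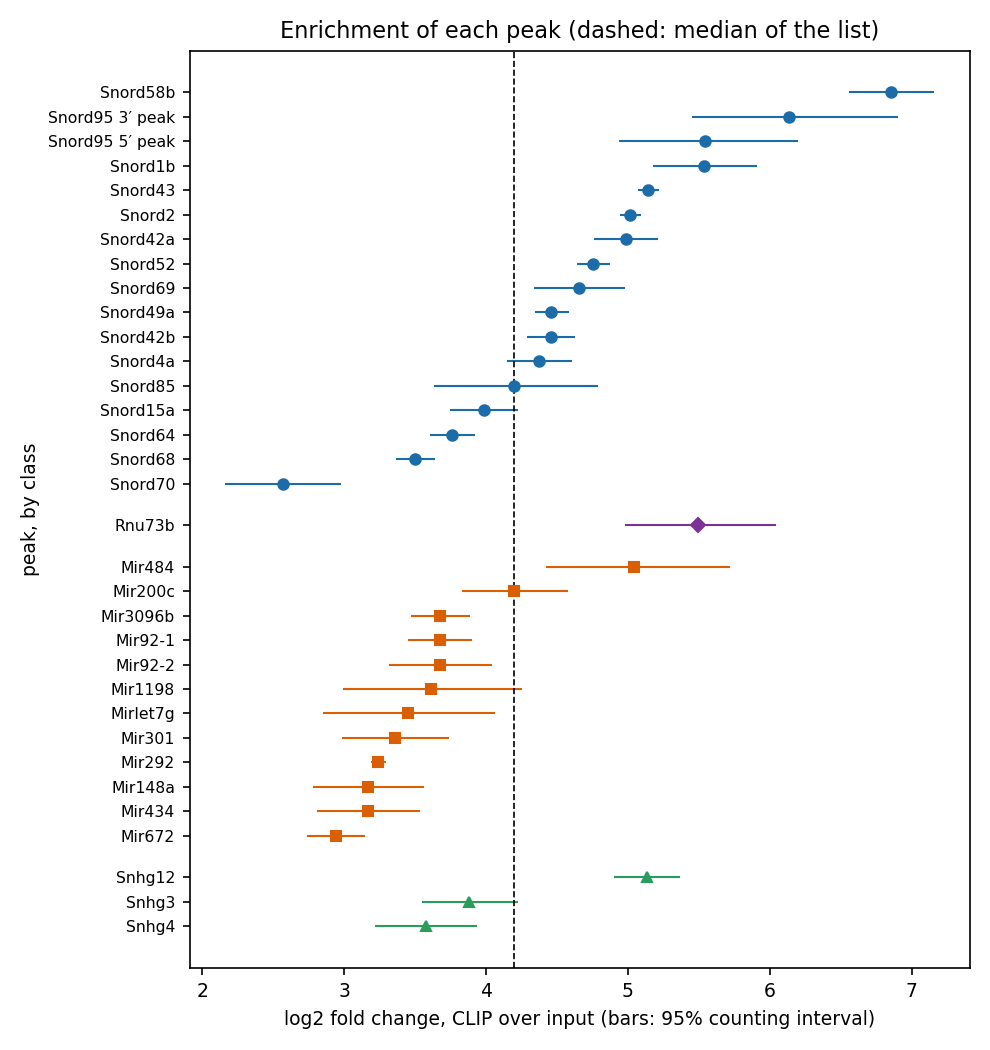
Log2 fold change of CLIP over input for each of the 33 peaks with its 95% counting interval, grouped by class and ordered by value. The dashed line is the list median of 4.20. Most Snord peaks lie to its right, and among the microRNA peaks Mir484 alone lies wholly to its right.

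The set and similar peaks outside it had more reads per peak than the list. The median was 79.7 RPM in Snord peaks (8.27 to 777), 14.5 RPM in microRNA peaks (5.36 to 578) and 19.9 RPM in Snhg peaks (15.4 to 79), beside 8.36 RPM in the list and 21.5 RPM in the 63 other peaks of unclassified exons. The 200 peaks with the most RPM, from 15.2 RPM upward, held 14 of 17 Snord, 6 of 12 microRNA and 3 of 3 Snhg peaks, as well as 35 of those 63 peaks. The 33 of 793 peaks held 16.1% of its summed RPM, of which Snord peaks held 11.9% and microRNA peaks 3.58%. Whether reads were counted in more than 1 of neighbouring peaks is not known, so shares of summed RPM may not be shares of reads. Per base of the peak, the median was 1.70 RPM in Snord, 0.642 in microRNA and 0.326 in Snhg peaks, beside 0.299 in the list and 0.877 in the other unclassified-exon peaks. Snord peaks thus lay above this comparison in both measures and microRNA and Snhg peaks below it, with no test. The median recovered input was 213 reads in Snord, 111 in Snhg and 103.5 in microRNA peaks and 42 in the list.

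Genes of proteins that act on these RNAs were also looked up in the list. The whole list held 544 gene names, beside 49997 genes in the RefSeq table. Among 11 genes of box C/D proteins and their assembly factors, Nop56 and Nop58 had 7 peaks together, 3 of them on small RNA genes within their own spans. Another Nop56 peak (chr2:130275506-130275512, 115 RPM) lay just before the one on Snord110 (chr2:130275531-130275572). None of the 6 genes of box H/ACA proteins and their assembly factors was listed. Lists this short give no comparison of the box classes, and none was tested. Among 12 genes of microRNA processing, Dgcr8, which encodes the RNA-binding partner of Drosha, had 1 intronic peak with 7 RPM from 77 CLIP and 9 input reads. The other 11, Ago2, Dicer1, Lin28a and Lin28b among them, were not listed, and their level of binding is not known.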

How the data were processed

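The members and gene lists were chosen with earlier results of these data known. Per the submitters' processing notes, CASAVA 1.4, cutadapt, HISAT2 2.1.0 and SAMtools were used with build mm10; the peak caller and the pooling of replicates are not given in the sources used here. Per the file headers, the authors gave 1 RPM value per peak, read as the CLIP libraries together, and 1 fold change, whose base is not stated. The deposited fold change was read as log2: RPM times 11 was whole in 100% of peaks within rounding, and CLIP reads divided by 2 to that power, times a depth ratio of 7.47, gave whole input reads (within the rounding error, itself under 0.1 reads, plus 0.03) in 100% of 720 peaks. Recovered reads are sums if the totals are. Positions were set against RefSeq genes and microRNAs of GRCm38.p6. Python 3.11.15 with scipy 1.17.1 was used for Clopper-Pearson intervals, exact binomial tests adjusted over 793 peaks and Fisher's exact test. The computation was tested on simulated data. Every member was named, with full values for the extremes of each class, all microRNA peaks and genes with 2 or more peaks. Comparison with the list median was chosen after seeing the data. Reads are not independent molecules. Columns of per-sample values left out numbered 0. A host gene and the result that needs it are not reported here.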

Additional observations from a re-analysis of the deposited data

How the results depend on the processing

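No paired analysis was possible because each peak has a single value for all libraries, which also kept libraries from being left out in turn. Planned settings for box H/ACA peaks were not run, as no peak had such a name. Of the alternatives for medians, counts and shares, 19 stayed within counting error or within 1.5 times the count and 9 moved further. The median RPM of Snord peaks (79.7) was 67.9 as a geometric mean and 66.7 with Rnu73b, a setting chosen after seeing the data. That of microRNA peaks (14.5) was 20.9 as a geometric mean and 10.5 in the more enriched 50% of the list, and that of Snhg peaks (19.9) was 28.9 and 79. The more enriched 50% left 16 of 33 peaks. The share of summed RPM (16.1%) was 18.2% with intervals within 50 bases merged and 21.6% with Snhg1 counted. For these 9 the cause was not tested. With 1 read added to CLIP and input, the log2 enrichment of single peaks shifted by 0.07 at most. Depth limits Snord95, Mir484, Mirlet7g, Mir1198, Rnu73b and Snord85 most, with 19 to 41 input reads.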

Other observations

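Several peaks with other names lay on small RNA genes, which the gene names alone do not show. By position 118 of 793 peaks, with 61.9% of the summed RPM, overlapped a small RNA gene of RefSeq, and 87 of them, with 45.9% of the RPM, did not carry a name that the 33 were chosen by. The E130102H24Rik peak (chr4:101346957-101346977, minus strand, 12.6 RPM, log2 enrichment 3.01) coincided with both ends of miR-101a-3p, and the Ccdc55 peak (chr11:77078086-77078108, minus strand, 3.91 RPM, log2 enrichment 4.74) with both ends of miR-423-3p. An intergenic peak with 118 RPM (chr12:36816249-36816268, plus strand, log2 enrichment 5.01) covered bases 45 to 64 of the Mir5099 hairpin. The 65-base Smc4 peak (4.55 RPM) reached only the first 19 bases of the Mir16-2 hairpin and ended before most of its mature arm, and the 71-base Atp5b peak (27.8 RPM) covered nearly all of the Mir677 hairpin, so not every peak at a microRNA gene outlined a mature arm.

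By position, box H/ACA genes lay under peaks with other names as well. The Rpsa peak on Snora62 (12.5 RPM) had a log2 enrichment of 2.22 (interval 1.90 to 2.53), and the Rpl39 peak on Snora69 (9 RPM) had 3.75 (interval 3.26 to 4.25). These were chosen after their values were seen, and with the Snhg4 peak they make 3 peaks, too few for a statement on the class.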
